A study of Mus musculus with 6 samples.

Results

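Cluster 19 was 1 of the 2 clusters that the deposited annotation of H22 liver tumors named dendritic cells (DCs), and its members were all cells with that name and that cluster number. It held 779 cells, which were 50.1% of the 1556 annotated DCs and 1.32% of the 58794 annotated cells, and cluster 20 held the other 777 DCs. Tumor tissue came from 3 control mice and 3 stress mice, with 1 single-cell library per mouse. All were wild-type male C57BL/6J mice, young adults at the start, and all carried H22 tumors grown in the liver. Stress mice were exposed to chronic unpredictable mild stress, a daily change of mild stressors, before H22 cells were implanted. Control mice were housed normally and received the same cells. H22 is a mouse hepatoma line passaged as ascites before it is placed in the liver, so the tumors share 1 cell line that did not arise in these mice. Cluster 19 cells numbered 59, 160 and 117 in control mice 1 to 3 and 70, 203 and 170 in stress mice 1 to 3.

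DCs take up proteins from their surroundings, including dying tumor cells, and show fragments of them to T cells on major histocompatibility complex class II (MHC-II) molecules. Conventional DCs depend on the receptor Flt3 and are divided into cDC1, marked by Xcr1 and Clec9a, and cDC2, marked by Cd209a, while mature DCs switch on the chemokine receptor Ccr7 and move to lymph nodes. Tumor cells of epithelial origin are recognised by keratins, and they do not normally make MHC-II or the pan-leukocyte protein CD45. In droplet sequencing, reads are counted as unique molecular identifiers (UMIs), and a droplet may hold more than 1 cell as well as RNA that floated free of the cells.

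Cluster 19 fell into 2 groups of cells by depth. Of its cells, 478 held fewer than 5000 UMIs and 301 held 5000 or more, and these are called low-depth and high-depth cells. The 29 cells between 2500 and 10000 UMIs were few beside the 459 below and the 291 above that range, and the cells nearest to the limit held 4730 and 5022 UMIs. The median was 888 UMIs in low-depth cells and 33452 UMIs in high-depth cells, against 7124 in cluster 20, 5291 in monocytes and 27716 in tumor cells. High-depth cells gave 95.1% of all UMIs of the cluster, so that any sum over the whole cluster was mostly a sum over them. High-depth cells numbered 13, 67 and 27 in the control mice and 16, 114 and 64 in the stress mice, and low-depth cells 46, 93 and 90 against 54, 89 and 106. The median share of mitochondrial UMIs was 2.51% in low-depth cells, 4.40% in high-depth cells, 4.41% in tumor cells and 1.71% in cluster 20.

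**Figure D1:**
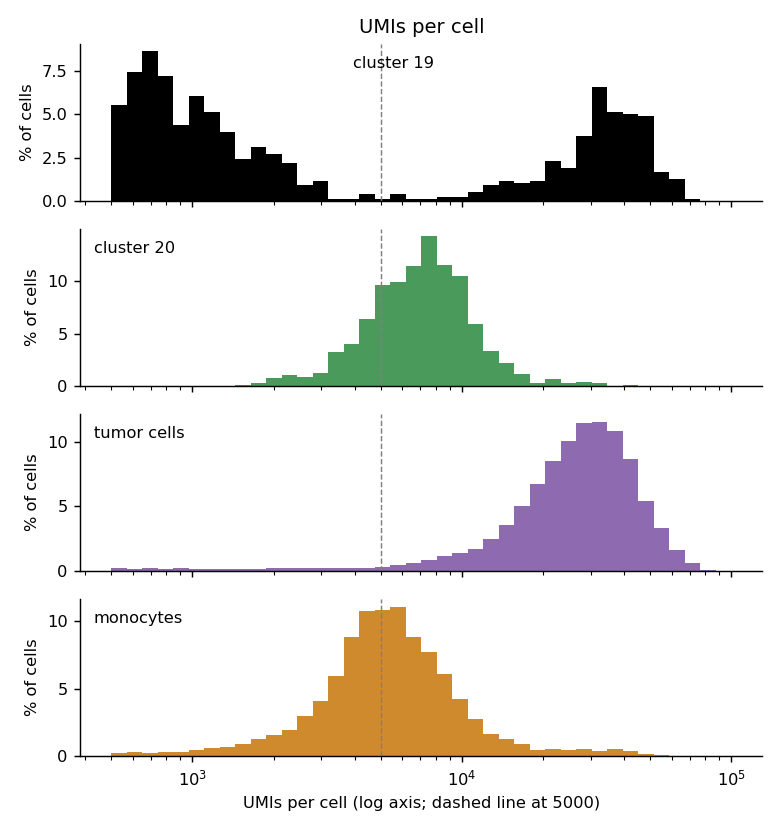
Percent of the cells of a group by total UMIs per cell (log axis, dashed line at 5000) in cluster 19, cluster 20, tumor cells and monocytes, all 6 mice together. Cluster 19 has a group of cells around its low-depth median of 888 UMIs and another around its high-depth median of 33452 UMIs, near the tumor cells at 27716, with few cells between them.

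Scrublet, which compares each cell with artificial sums of 2 cells of the same library, called 91.7% of the high-depth cells doublets and 2.93% of the low-depth cells. It called 2.45% of cluster 20, 5.37% of monocytes, 1.42% of tumor cells and 63.4% of the 350 cells annotated as M-MDSCs. By the methods of the study, doublets had already been taken out with Scrublet ahead of the annotation, and the calls given here were made anew on the deposited counts of each library. Across mice the called share of high-depth cells ran from 69.2% in control mouse 1 to 96.5% in stress mouse 2. The called share of a whole library ran from 3.06% in control mouse 1 to 6.50% in stress mouse 2, and the high-depth cells of cluster 19 were 0.123% and 1.21% of the annotated cells in these 2 mice. The doublet calls are computed from the same counts. Results without the called cells are given where enough cells were left, and beyond that the part of doublets in the results was not tested. Of the cluster 19 cells, 12 had a barcode that also occurred in another library, and 2 libraries shared 13 to 40 barcodes.

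The name DC was checked against the markers Flt3, Xcr1 and Cd209a, whose means were lower in low-depth cells than in cluster 20. Flt3, the growth factor receptor of conventional DCs, stood at 34.9 ± 39.2 counts per 1000000 UMIs (CPM, mean ± SD over 6 mice) in low-depth cells, 2.84 ± 2.09 CPM in high-depth cells and 106 ± 54.7 CPM in cluster 20. Xcr1, the chemokine receptor of cDC1, had no UMI in the 478 low-depth cells, which allows a share of up to 0.628% of cells with a UMI, and stood at 24.8 ± 13.4 CPM in cluster 20. Cd209a, a lectin of cDC2, stood at 10.6 ± 21.6 CPM in low-depth cells against 83.4 ± 71.8 CPM in cluster 20. The 8 cDC2 genes together took 0.0579% ± 0.00728 of summed UMIs in low-depth cells and 0.0603% ± 0.0203 in cluster 20. In monocytes they took 0.0595% ± 0.00837. The 10 cDC1 genes took 0.0647% ± 0.0369, 0.152% ± 0.0286 and 0.0592% ± 0.0198 in that order. Low-depth cells therefore had lower levels of Flt3, Xcr1, Cd209a and the cDC1 list than cluster 20, but not of the cDC2 list. They are called here by their depth.

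MHC-II genes were present in both groups of cells at levels far below cluster 20. H2-Aa, the alpha chain of the MHC-II molecule I-A (chr17:34282744-34287823, minus strand, GRCm38), was at 1035 ± 453 CPM in low-depth cells and 394 ± 174 CPM in high-depth cells. Cluster 20 held 6695 ± 1098 CPM of H2-Aa, monocytes 2189 ± 958 CPM and tumor cells 6.80 ± 5.67 CPM. The invariant chain gene Cd74, whose product holds MHC-II molecules until a peptide is loaded, was at 1699 ± 772 CPM in low-depth cells and 573 ± 259 CPM in high-depth cells, against 8281 ± 1528 CPM in cluster 20. In every mouse the level of H2-Aa in both depth groups lay below that of cluster 20 and above that of tumor cells. Not every low-depth cell held these genes. An MHC-II UMI was found in 53.8% of low-depth cells, from 27.8% in control mouse 3 to 80.9% in stress mouse 2. It was found in 95.7% of high-depth cells and 100% of cluster 20. An H2-Aa UMI was found in 31.0%, 74.1% and 99.6% in that order. Depth differed, so these shares are not comparable as expression.

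Genes of monocytes, macrophages and neutrophils stood higher in the low-depth cells than in cluster 20. C1qa, a complement gene of macrophages, was at 246 ± 193 CPM in low-depth cells, 29.6 ± 23.3 CPM in cluster 20 and 799 ± 239 CPM in monocytes. The neutrophil gene S100a8 was at 334 ± 198 CPM in low-depth cells and at 19.3 ± 18.2 CPM in cluster 20. Csf3r, the receptor for the growth factor of neutrophils, was at 230 ± 122 CPM against 5.96 ± 2.14 CPM, and Retnlg, another neutrophil gene, at 195 ± 147 CPM against 1.01 ± 1.18 CPM. Ptprc, which codes for CD45, was at 683 ± 212 CPM in low-depth cells and 399 ± 124 CPM in cluster 20. The T cell gene Cd3e was at 1.54 ± 3.78 CPM and the B cell gene Cd79a at 7.13 ± 17.5 CPM in low-depth cells, both near 0.

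Not every low-depth cell carried these genes. At least 1 UMI of a C1q gene was found in 17.1% ± 10.8 of low-depth cells (SD over 6 mice), at least 1 UMI of the mature DC genes Ccr7, Fscn1 or Ccl22 in 6.67% ± 5.26, and at least 1 UMI of a neutrophil gene in 29.9% ± 16.4. None of the 3 was found in 48.3% ± 10.7 of them. At the same threshold, tumor cells held a neutrophil UMI in 31.3% ± 14.0 and a C1q UMI in 11.8% ± 3.78 at a median of 27716 UMIs, so shares at these depths are not comparable as expression.

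Low-depth cells held fewer tumor UMIs than high-depth cells. Krt18, a keratin of epithelial cells (chr15:102028180-102032027, plus strand), had a UMI in 4.31% ± 1.28 of low-depth cells, against 93.9% ± 1.36 of high-depth cells and 94.2% ± 1.41 of tumor cells. NK/T cells, which should lack this keratin, had one in 14.2% ± 2.43 of cells at a median of 4403 UMIs, and cluster 20 in 8.89% ± 6.23. These cells were deeper than the low-depth cells at 888 UMIs, so the shares are not comparable as expression. Per UMI, Krt18 stood at 45.4 ± 19.6 CPM in low-depth cells, 363 ± 151 CPM in high-depth cells, 423 ± 99.1 CPM in tumor cells, 24.5 ± 25.4 CPM in cluster 20 and 85.7 ± 38.8 CPM in monocytes. The low-depth value lay between those of cluster 20 and monocytes. With each cell thinned to 1000 UMIs, 3 or more UMIs of the tumor genes Krt18, Krt8, Wfdc2, Hmga2 and Cldn6 were found in 0.735% ± 1.14 of low-depth cells, 3.76% ± 1.87 of NK/T cells, 1.90% ± 4.01 of cluster 20 and 2.12% ± 1.29 of monocytes, against 37.2% ± 3.56 of high-depth and 44.3% ± 1.82 of tumor cells.

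High-depth cells carried tumor transcripts at the level of tumor cells. The summed tumor genes Krt18, Krt8, Wfdc2, Hmga2 and Cldn6 gave 62.5, 66.3 and 79.1 UMIs per high-depth cell in controls and 74.2, 78.5 and 72.9 in stress mice, and the tumor cells of the same mice gave 58.5, 67.9 and 80.6 against 83.3, 79.3 and 74.6. The means were 72.3 ± 6.62 and 74.0 ± 9.36 UMIs per cell, against 0.290 ± 0.0754 in low-depth cells, 2.29 ± 3.08 in cluster 20 and 3.26 ± 1.41 in monocytes. The values of high-depth and tumor cells overlapped across mice, and those of every other group of cells just named lay below them in all 6 mice.

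The single tumor genes followed the sum. Wfdc2, which codes for a secreted protease inhibitor raised in many carcinomas, was at 837 ± 168 CPM in high-depth cells, 924 ± 65.1 CPM in tumor cells and 112 ± 33.5 CPM in low-depth cells. Hmga2, a chromatin protein of fetal and tumor tissue, was at 848 ± 195, 1032 ± 65.3 and 79.2 ± 37.3 CPM in that order. Fn1, the matrix protein fibronectin, did not separate the groups in this way. It stood at 549 ± 349 CPM in high-depth cells and 624 ± 337 CPM in tumor cells, but also at 743 ± 416 CPM in low-depth cells and 1462 ± 461 CPM in monocytes, and was low in cluster 20 with 48.6 ± 23.3 CPM.

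Xist, the noncoding RNA of the inactive X chromosome (chrX:103460366-103483254, minus strand), was high in the tumor cells of these male mice and served as a second mark of them. High-depth cells held 47.3 ± 8.86 UMIs of Xist per cell and tumor cells 49.6 ± 5.39, against 0.186 ± 0.0389 in low-depth cells and 1.34 ± 1.41 in cluster 20. Genes of the Y chromosome (Ddx3y, Eif2s3y, Kdm5d and Uty) gave 1.28 ± 0.361 UMIs per high-depth cell, close to the 1.31 ± 0.182 of monocytes and above the 0.334 ± 0.129 of tumor cells. Both Xist and a Y-linked gene were found in 60.7% ± 13.4 of high-depth cells, 26.0% ± 9.12 of tumor cells, 21.9% ± 5.18 of cluster 20, 42.0% ± 5.28 of M-MDSCs and 5.04% ± 2.97 of low-depth cells. In each of the 6 mice the Y-linked sum per cell was higher in high-depth than in tumor cells.

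High-depth cells also carried leukocyte transcripts. The 8 pan-leukocyte genes gave 11.7, 33.1 and 41.6 UMIs per high-depth cell in controls and 28.5, 36.3 and 50.1 in stress mice. Their mean of 33.5 ± 13.0 stood near the 37.3 ± 5.76 of cluster 20 and the 47.3 ± 8.31 of monocytes, and apart from the 0.981 ± 0.425 of tumor cells. The lowest value was that of control mouse 1, which had only 13 high-depth cells. The 10 MHC-II genes gave 11.9, 60.2 and 38.6 UMIs per high-depth cell in controls and 72.6, 88.2 and 74.0 in stress mice. The mean of 57.6 ± 27.9 was close to the 59.9 ± 25.2 of monocytes and below the 206 ± 26.8 of cluster 20.

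**Figure D2:**
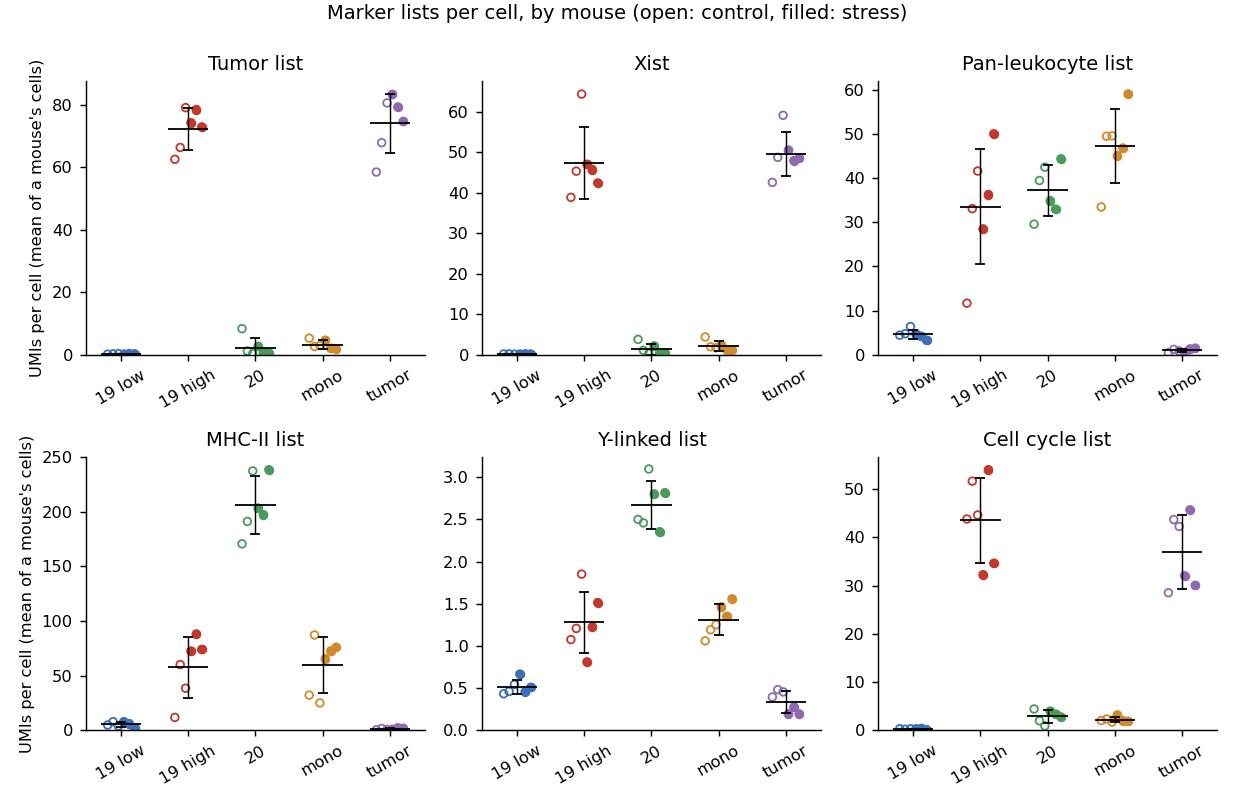
Mean UMIs per cell summed over 6 gene lists (tumor, Xist, pan-leukocyte, MHC-II, Y-linked, cell cycle) in each group of cells, with open points for control mice and filled points for stress mice, lines for the mean of 6 mice and bars for the SD. High-depth cells of cluster 19 lie with tumor cells for the tumor list and Xist (72.3 and 74.0, 47.3 and 49.6) and with monocytes for the MHC-II and Y-linked lists (57.6 and 59.9, 1.28 and 1.31).

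The cell cycle genes of high-depth cells also stood at the level of tumor cells. The 13 genes gave 43.5 ± 8.74 UMIs per high-depth cell and 37.0 ± 7.64 per tumor cell, against 0.318 ± 0.0847 in low-depth cells and 2.22 ± 0.529 in monocytes. Birc5, an inhibitor of apoptosis made in mitosis, was at 263 ± 73.0 CPM in high-depth cells, 256 ± 72.4 CPM in tumor cells and 54.9 ± 40.9 CPM in low-depth cells. Top2a, which untangles DNA before division, was at 252 ± 82.4, 243 ± 56.7 and 42.9 ± 22.4 CPM.

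Tumor and leukocyte transcripts occurred in the same high-depth cells. H2-Aa and Krt18 were found together in 59.9% ± 19.7 of high-depth cells, 14.6% ± 11.3 of tumor cells, 8.89% ± 6.23 of cluster 20 and 1.40% ± 1.28 of low-depth cells. At least 10 pan-leukocyte UMIs were found in 85.5% ± 19.9 of high-depth cells and in 0.762% ± 0.816 of tumor cells, although the median depth of the 2 groups was close, and in 58.4% ± 27.2 of M-MDSCs at a median of 27448 UMIs.

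Deeper cells hold more UMIs of any gene, so all cells were also thinned at random to 1000 UMIs, which left out 271 low-depth cells below that number and no high-depth cell. After thinning, at least 3 MHC-II UMIs together with at least 3 tumor UMIs were found in 39 of 301 high-depth cells (13.0%), in 1 of 207 low-depth cells (0.483%), and in 0.386% of cluster 20, 0.502% of monocytes and 0.0171% of tumor cells. Without thinning the share in high-depth cells was 84.4%. Per mouse, the thinned share of high-depth cells averaged 8.95% ± 8.08 and ran from 0 in control mouse 1 and stress mouse 1 to 20.3%. A count of 0 allows up to 23.1% of the 13 cells of control mouse 1 and up to 18.8% of the 16 cells of stress mouse 1, so a lower share was not detectable there. At 1000 UMIs, 3 or more MHC-II UMIs alone were found in 28.8% ± 11.1 of high-depth and 43.0% ± 18.8 of low-depth cells.

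**Figure D3:**
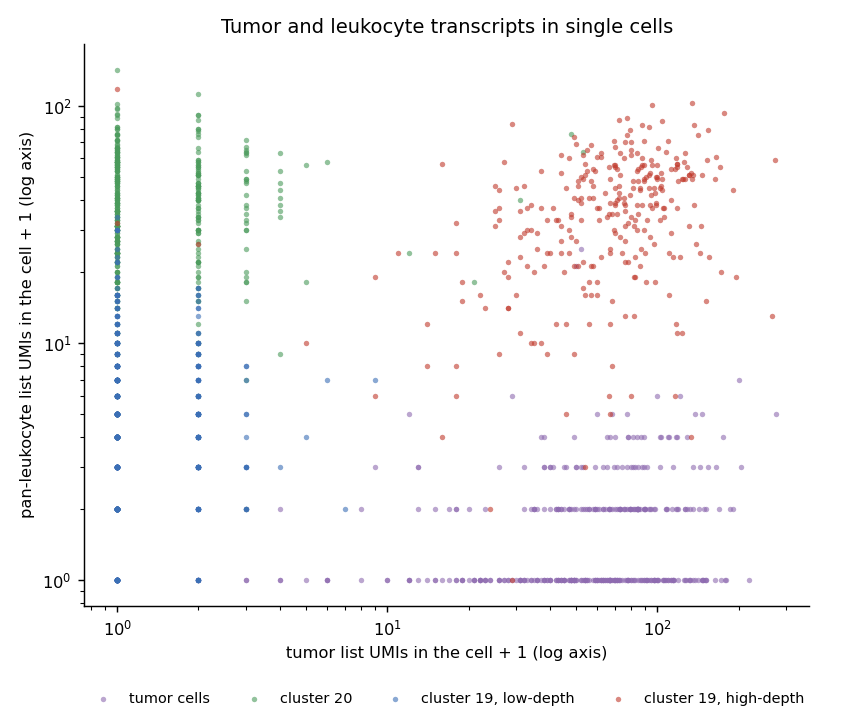
Tumor-list UMIs plus 1 (x axis, log) and pan-leukocyte UMIs plus 1 (y axis, log) in single cells, for all 478 low-depth and 301 high-depth cells of cluster 19 and 400 randomly drawn cells each of cluster 20 and tumor. High-depth cells lie in the upper right with many UMIs of both lists, cluster 20 and low-depth cells have few tumor UMIs, and tumor cells have few leukocyte UMIs.

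The 25 high-depth cells that Scrublet did not call also held both sets of transcripts. They had a median of 27566 UMIs, 20 pan-leukocyte UMIs and 52 tumor UMIs, against 33978, 37 and 71 in the 276 called cells. Their median Scrublet score was 0.108, against 0.272 in the called cells, 0.0253 in low-depth cells and 0.0427 in tumor cells. A cell without a call is therefore not shown to be a single cell. The UMIs of other leukocytes were also found in high-depth cells. A C1q gene was present in 50.3% ± 19.6 of them, a mature DC gene (Ccr7, Fscn1 or Ccl22) in 26.9% ± 8.56 and a neutrophil gene in 46.7% ± 18.4, against 11.8% ± 3.78, 10.5% ± 2.68 and 31.3% ± 14.0 of tumor cells. Thus more than 1 set of leukocyte markers was seen among high-depth cells above the share in tumor cells of like depth.

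**Figure D4:**
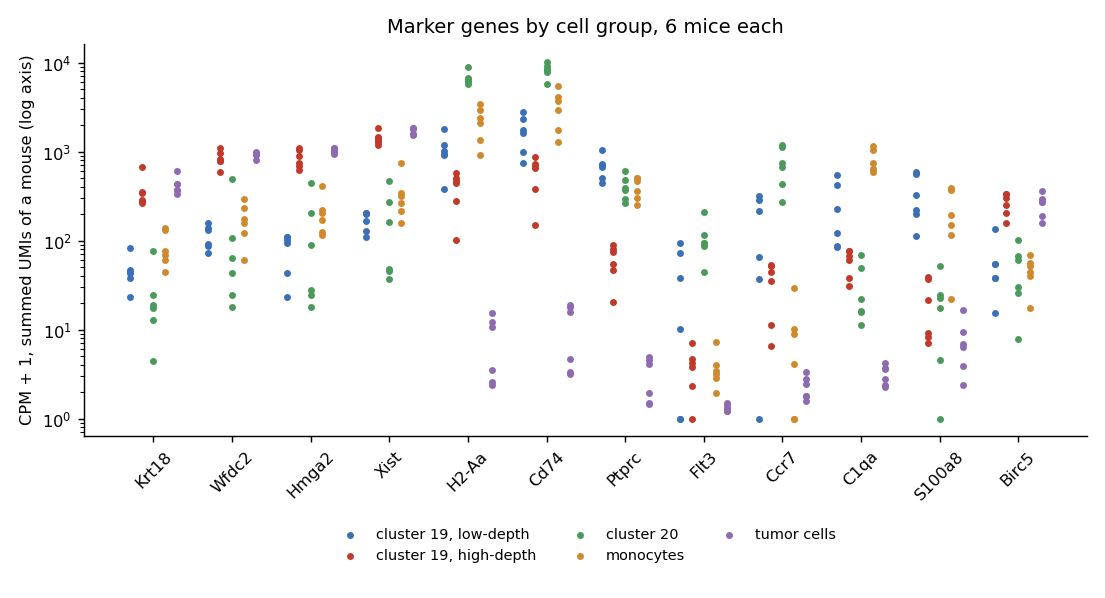
Level of 12 genes as CPM plus 1 (log axis) in low-depth and high-depth cells of cluster 19, cluster 20, tumor cells and monocytes, with 1 point per mouse. Krt18, Wfdc2, Hmga2 and Xist are high in high-depth and tumor cells (Krt18 means 363 and 423 CPM, 45.4 CPM in low-depth cells), whereas C1qa is higher in low-depth cells and monocytes (246 and 799 CPM) than in cluster 20 (29.6 CPM).

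Leading genes gave the same division, and they are described without a test because the clusters were drawn from the same counts. These ratios are of mean CPM with 1 CPM added to both groups, so those over a group near 0 depend on that 1 CPM. Among genes with at least 50 CPM, the largest ratios of low-depth cells to cluster 20 were those of Plcb1 with 169-fold, Retnlg with 97.1-fold and F13a1 with 83.1-fold, the last coding for a subunit of a clotting factor made by macrophages. The largest ratios of low-depth cells to tumor cells were those of Pid1 with 402-fold and Slc8a1 with 366-fold, and Cd86, a costimulatory ligand for T cells, was 339-fold higher. Against monocytes the low-depth cells were led by the mature DC genes Fscn1 with 25.9-fold, Cacnb3 with 18.3-fold and Ccr7 with 17.0-fold. High-depth cells were led by Cd74 with 54.0-fold, H2-Aa with 50.6-fold and H2-Eb1 with 46.6-fold over tumor cells. Over cluster 20 they were led by Slit2 with 16.1-fold, and Krt18 was 14.3-fold higher. Over monocytes they were led by the proliferation genes Pbk with 7.44-fold and Rrm2 with 6.24-fold. Across expressed genes, the log2 profile of low-depth cells correlated with that of monocytes at r = 0.79, with inflammatory myeloid cells at 0.67, with cluster 20 at 0.61 and with tumor cells at 0.12, while that of high-depth cells correlated at 0.94 with annotated M-MDSCs, 0.88 with tumor cells, 0.59 with monocytes, 0.56 with B cells, 0.56 with NK/T cells and 0.51 with cluster 20. Genes are not independent replicates, and these values describe profiles that differ in depth. The annotated M-MDSCs held 57.4 ± 8.78 tumor UMIs and 13.4 ± 5.63 pan-leukocyte UMIs per cell.

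The question of the study, whether stress remodels the tumor microenvironment, was put to cluster 19 by comparing stress with control mice over mice. Control libraries were counted with Cell Ranger 9.0.0 and stress libraries with 7.1.0, and the effect of that change of software cannot be told apart from that of stress in any such comparison, whether of cell shares, depth, doublet calls or genes. Of the DCs of control mice, cluster 19 made up 74.7%, 59.5% and 74.1%, and of those of stress mice 49.6%, 36.7% and 47.8%. The groups did not overlap, and the mean was 24.7 percentage points lower in stress mice (69.4% ± 8.60 against 44.7% ± 6.99). The two-sided exact permutation p was 0.10, the smallest that 3 against 3 mice can give, and 0.70 after adjustment over the 7 values tested. The lower share went with a larger cluster 20. As a share of all annotated cells, cluster 19 was 0.560%, 1.36% and 1.26% in control and 0.967%, 2.15% and 1.61% in stress mice, with an exact p of 0.40, while cluster 20 was 0.190%, 0.928% and 0.443% against 0.981%, 3.71% and 1.76%, with an exact p of 0.10. Hence the direction for cluster 19 turned with the denominator.

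The measures of the make-up of cluster 19 overlapped between the groups of mice. High-depth cells were 22.0%, 41.9% and 23.1% of the cluster in controls and 22.9%, 56.2% and 37.6% in stress mice, with an exact p of 0.60. The MHC-II list took a median of 0.00250%, 0.176% and 0 of the UMIs of a cell in controls and 0.178%, 0.227% and 0.0825% in stress mice, with an exact p of 0.20. The tumor list took a median of 0, 0.0770% and 0 against 0, 0.147% and 0.0615%, with an exact p of 0.70. For these 3 measures each test gave an adjusted p of 0.70 or above. The share of cells with both lists after thinning was 0, 8.08% and 2.86% against 0, 10.5% and 12.9% (exact p = 0.50), the share called doublets 16.9%, 41.9% and 20.5% against 18.6%, 56.2% and 36.5% (exact p = 0.60), and the cell cycle list was at a median of 0 in 4 of the 6 mice (exact p = 1).

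To compare gene expression, the UMIs of all cells of a mouse were added up and the sums entered edgeR's quasi-likelihood test, with Benjamini-Hochberg adjustment over all genes tested and a threshold of 0.05. In such sums, fewer cells of a type and less RNA per cell cannot be told apart.

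In low-depth cells, 11 of 2214 genes tested passed (0.497%), all of them higher in stress mice. The number was 4 with control mouse 3 left out, 29 with control mouse 2, 6 with stress mouse 2 and 7 with stress mouse 3. These were Gphn, Lars2, Cmss1, Camk1d, Cdk8, Ccr7, Pkib, Tmtc2, Fyn, Oasl1 and Mrps28, of which Tmtc2, Fyn, Oasl1 and Mrps28 are named after their values were seen. Ccr7 (chr11:99144196-99155077, minus strand), the receptor that brings mature DCs to lymph nodes, was at 0, 64.9 and 36.2 CPM in controls and at 214, 287 and 313 CPM under stress. The groups did not overlap, nor did they for 15.7% of all genes tested in low-depth cells. Ccr7 was called on these same values, so the lack of overlap adds no support. The values rested on 10 UMIs in all control mice and 80 UMIs in all stress mice. A UMI of Ccr7 was found in 29 of the 478 low-depth cells (6.07%), namely in 0, 3 and 2 cells of the control mice and in 3, 11 and 10 cells of the stress mice, so the CPM are those of a few cells averaged with many that held none. Tumor cells, which should lack Ccr7, held a UMI of it in 2.95% of cells at their median of 27716 UMIs. In low-depth cells the log2 fold change of Ccr7 was 2.78 ± 0.53 (SE), with an adjusted p of 0.0268 by edgeR. Cluster 20, in which Ccr7 stood at 744 ± 373 CPM, was a larger share of the cells of stress mice, and its part in the value of the low-depth cells was not tested. The call was lost without control mouse 1 (adjusted p = 0.0719 by edgeR), control mouse 3 (0.217), stress mouse 2 (0.0828) or stress mouse 3 (0.123), with log2 fold changes of 2.42 to 2.75. Of the 16 mature DC genes, 5 could be tested in low-depth cells, and Ccr7 alone passed. All 5 were higher in stress mice, with a median log2 fold change of 0.88 against 0.01 over all genes tested. Of the 6 MHC-II genes tested there, 2 were higher and 4 lower, none passed by edgeR or DESeq2, and none had an unadjusted p under 0.05, against 227 of all 2214 genes tested (10.3%).

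Gphn, Lars2, Cmss1, Camk1d and Cdk8 rose in high-depth cells as well. Gphn (chr12:78226379-78684772, plus strand), which codes for the synapse and cofactor protein gephyrin, was at 1173, 886 and 795 CPM in the low-depth cells of controls and at 9449, 6146 and 7878 CPM in those of stressed animals. In high-depth cells it was at 106, 168 and 203 against 498, 364 and 640 CPM. In both depth groups each stress mouse exceeded each control mouse, on the same values that gave the calls. The log2 fold change was 3.06 ± 0.39 in low-depth cells (adjusted p = 0.00231 by edgeR) and 1.66 ± 0.24 in high-depth cells (adjusted p = 0.00831). Lars2, a mitochondrial leucyl-tRNA synthetase (chr9:123366927-123462666), rose by 2.70 ± 0.39 and 2.01 ± 0.27 on the log2 scale, and Cmss1 by 3.31 ± 0.45 and 1.59 ± 0.24. The kinase genes Camk1d and Cdk8 rose by 2.37 ± 0.41 and 2.91 ± 0.41 in low-depth cells and by 1.61 ± 0.19 and 1.39 ± 0.27 in high-depth cells. Cdk8 lost its call in high-depth cells when control mouse 1, control mouse 2, control mouse 3, stress mouse 1 or stress mouse 3 was left out (log2 1.03 to 1.51, adjusted p up to 0.106 by edgeR). Camk1d lost its call in low-depth cells with control mouse 3 (log2 2.13) or stress mouse 3 (2.40) left out. These 5 genes were 45.5% of the calls in low-depth and 8.47% of those in high-depth cells. Gphn also rose in cluster 20 (log2 fold change 2.24) and in tumor cells (2.02), and these genes were listed because earlier results of these data had shown them to be raised in every class.

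In high-depth cells, 59 of 9556 genes passed (0.617%), of which 39 (0.408%) were higher and 20 (0.209%) lower in stress mice. The number was 15 with control mouse 3 or stress mouse 3 left out, 113 with control mouse 2, 39 with control mouse 1 and 31 with stress mouse 1. Ccl5, a chemokine of activated leukocytes, was at 2.79, 51.0 and 27.9 CPM in controls and at 148, 94.3 and 142 CPM under stress, and its log2 fold change was 1.94 ± 0.37 (adjusted p = 0.0279 by edgeR). Rsad2, an antiviral gene induced by interferon, was at 0, 3.89 and 3.22 CPM against 16.2, 15.4 and 18.7 CPM, and its log2 fold change was 2.43 ± 0.46 with the same adjusted p. The groups did not overlap for either gene, nor for 14.6% of all genes tested in high-depth cells. Both genes were called on these same values, so the lack of overlap adds no support. Ccl5 lost its call without control mouse 3, stress mouse 1 or stress mouse 3 and with DESeq2, at log2 fold changes of 1.82 to 2.23, and Rsad2 lost it when any mouse other than control mouse 1 was left out, at 2.35 to 2.84. Of the 7 interferon-stimulated genes that could be tested in high-depth cells, Rsad2 alone passed and all 7 were higher in stress mice, with a median log2 fold change of 0.83 against 0.00 over all genes tested. The sum of all 11 genes of the list overlapped between the groups of mice, at 0.00864%, 0.0315% and 0.00580% of the UMIs of high-depth cells in controls and 0.0262%, 0.0312% and 0.0389% under stress, so that control mouse 2 lay above stress mice 1 and 2. In tumor cells the same sum was at 0.00395%, 0.00512% and 0.00403% in controls and 0.00535%, 0.00560% and 0.00660% under stress. In NK/T cells it was at 0.0106%, 0.0213% and 0.0145% against 0.0366%, 0.0373% and 0.0367%. The groups did not overlap in either class, so a higher sum was not particular to cluster 19. They overlapped in cluster 20, monocytes and endothelial cells. Egr1, an immediate-early transcription factor, was at 908, 956 and 1223 CPM in controls and at 556, 382 and 503 CPM under stress. It fell by 1.07 ± 0.19 on the log2 scale (adjusted p = 0.0240 by edgeR), and of the other 7 immediate-early genes, none of which passed, 6 were lower and 1 was higher. Its call was lost without control mouse 3, stress mouse 2 or stress mouse 3, at -1.10 to -0.92. In tumor cells Egr1 fell by 0.83 on the same scale (adjusted p = 0.0140 by edgeR).

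**Figure D5:**
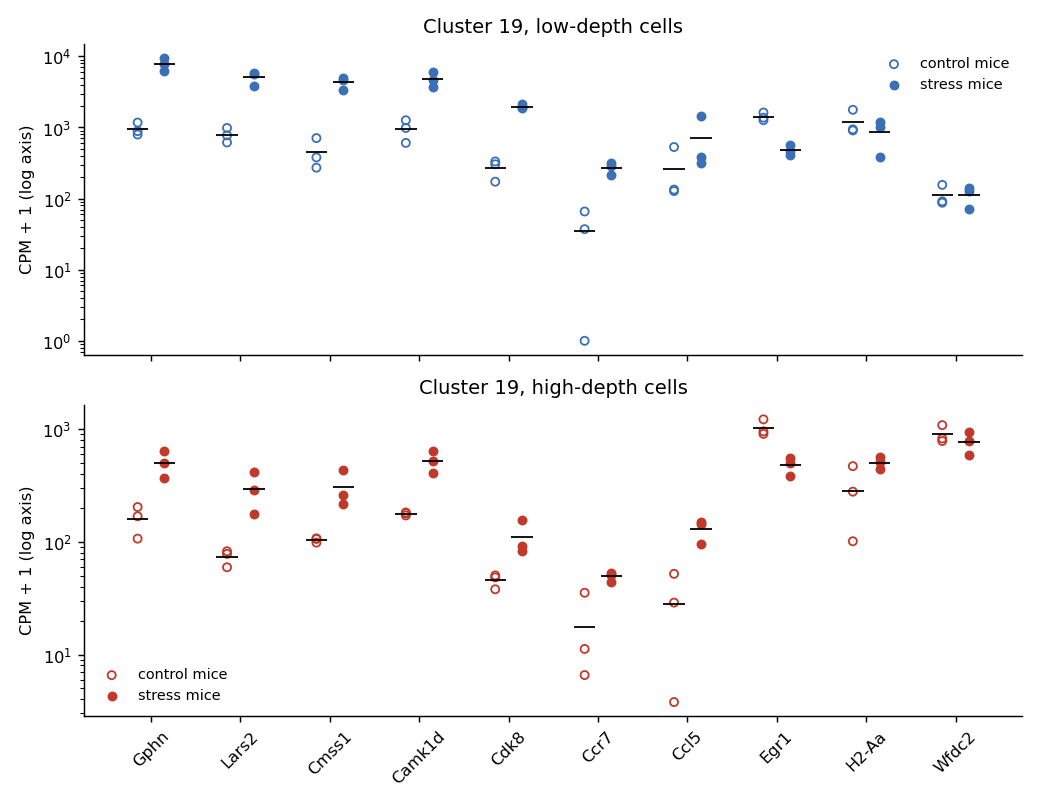
Level of 10 genes as CPM plus 1 (log axis) in low-depth and high-depth cells of cluster 19, with open points for control mice, filled points for stress mice and a line for the mean of each 3. Gphn, Lars2, Cmss1, Camk1d and Cdk8 separate the 2 groups of mice in both panels, Ccr7 passes the test in low-depth cells and Ccl5 and Egr1 in high-depth cells, and H2-Aa and Wfdc2 overlap between the groups of mice.

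Over the whole of cluster 19, 42 of 9878 genes passed (0.425%), of which 31 (0.314%) were higher and 11 (0.111%) lower in stress mice, and 37 of the 42 also passed in high-depth cells. Without control mouse 1 none passed, with 723 genes at an unadjusted p below 0.05. Without control mouse 2 there were 80, without control mouse 3 there were 6, without stress mouse 1 there were 27 and without stress mouse 3 there were 4. Without the cells called doublets 10 genes passed, and with DESeq2 76. The CPM of the 2 groups of mice did not overlap for any of the 42, and did not for 14.6% of all genes tested. The 42 were called on these same values, so their lack of overlap adds no support to the calls. The 10 with the largest changes were Edn2, Matn2, Ccdc162, Pkib, Anxa11os, Lars2, Gphn, Gm17494, Cmss1 and Gm36037, all higher in stress mice. Edn2, which codes for the vasoconstrictor endothelin 2, had 3 UMIs in control mice, all of them in control mouse 2, and 29, 63 and 30 UMIs in stress mice 1 to 3, each of these in a high-depth cell. The ratio of stress to control was 20.2, with an exact 95% counting interval of 6.76 to 99.4 that does not cover the spread of mice. Without control mouse 2 no control UMI was left, and against the limit of 3 counts Edn2 was at least 8.14-fold higher under stress. Edn2 lost its call in 4 of 12 settings, each with 1 mouse left out. Matn2, an extracellular matrix protein, was at 2.47, 2.79 and 0.960 CPM in controls and 20.8, 16.7 and 18.3 CPM under stress, and its log2 fold change was 3.07 ± 0.44 (adjusted p = 0.0204 by edgeR). Pkib, an inhibitor of protein kinase A, was at 2.47, 4.65 and 14.4 against 38.4, 61.1 and 31.6 CPM, and its log2 fold change was 2.63 ± 0.45 (adjusted p = 0.0291 by edgeR). The groups did not overlap for either gene. Matn2 lost its call in 3 of 12 settings (log2 2.77 to 3.64 over all 12) and Pkib in 6 of 14 (2.10 to 3.84 over all 14). Anxa11os is annotated as antisense to Anxa11, and since the strand setting of the counting is not given in the sources used here, its reads may not be separable from those of its partner. Of the 13 mitochondrially encoded transcripts tested, all 13 were higher in stress mice and 4 passed. This was not particular to cluster 19. The median mitochondrial share of tumor cells was 3.59%, 3.87% and 4.59% in controls and 5.30%, 5.61% and 5.25% under stress. In endothelial cells it was 1.92%, 2.66% and 1.95% against 2.80%, 3.66% and 2.77%. In cluster 20 and monocytes the groups overlapped. Rpl10 passed as higher and the ribosomal protein copy Rpl37rt as lower, and since such genes have near-identical copies, their values are uncertain.

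The 5 genes chosen as markers of cluster 19, namely H2-Aa, Krt18, Fn1, Wfdc2 and Hmga2, did not pass by edgeR. H2-Aa was at 191, 525 and 348 CPM in control mice and 505, 587 and 501 CPM under stress over the whole cluster, which is a log2 difference of 0.60 ± 0.26 (adjusted p = 0.543 by edgeR). Krt18 was at 307, 266 and 246 against 594, 339 and 273 CPM (adjusted p = 0.546), and the groups overlapped in both genes. Fn1 was at 364, 365 and 449 against 466, 623 and 1179 CPM without overlap, with an adjusted p of 0.232 by edgeR, and DESeq2 called it. Its difference was -0.92 in low-depth cells and 1.24 in high-depth cells on the log2 scale. The groups overlapped in Wfdc2 and Hmga2, whose differences were -0.13 ± 0.20 and -0.06 ± 0.22.

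The other lists held few called genes, and 842 of all 9878 genes tested (8.52%) had an unadjusted p below 0.05. Of the 7 MHC-II genes tested over the whole cluster none passed by edgeR, 6 were higher and 1 was lower, with a median log2 difference of 0.61 against 0.00 over all genes. Of these, 6 had an unadjusted p below 0.05, and DESeq2 called H2-Ab1, the beta chain of I-A. None of the 14 mature DC genes tested passed by edgeR, 13 being higher with a median of 0.60, 5 having an unadjusted p below 0.05 and DESeq2 calling Ccr7. Of the 13 cell cycle genes none passed with either tool, 3 being higher and 10 lower with a median of -0.36, and 2 had an unadjusted p below 0.05. Of the 8 pan-leukocyte, 11 monocyte and macrophage, 4 neutrophil and 6 endothelial genes tested none passed with either tool, with medians of -0.06, 0.03, -0.92 and 0.08 and with 0, 0, 1 and 1 at an unadjusted p below 0.05. The pan-leukocyte genes went different ways by depth, again with none passed by either tool. In low-depth cells 7 of the 8 were lower, with a median of -0.57. There 3 had an unadjusted p below 0.05 by edgeR, against 10.3% of all genes tested. In high-depth cells 6 were higher and 2 lower, with a median of 0.25 and 0 below that p. None of the 5 tumor genes passed with either tool, with a median of -0.13 and 2 at an unadjusted p below 0.05, nor did Xist, with a difference of -0.24 ± 0.15. The 4 DC lineage, 4 cDC1, 3 cDC2, 2 plasmacytoid DC and 3 Y-linked genes tested held no call by edgeR, with 1, 1, 0, 0 and 1 at an unadjusted p below 0.05, and DESeq2 called Irf8 of the cDC1 list. None of the NK and T cell, B cell, stellate or red cell markers had enough UMIs to be tested. Of the 8 interferon-stimulated, 6 glucocorticoid response, 7 DC cytokine and 7 checkpoint ligand genes tested none passed with either tool, with 3, 1, 2 and 0 at an unadjusted p below 0.05. Among 8 immediate-early genes, 7 of them lower with a median of -0.57, edgeR called Egr1 and DESeq2 called Egr1 and Ier2. In low-depth cells 7 of the 8 were lower with a median of -0.75. There 3 had an unadjusted p below 0.05 by edgeR, which called none, and DESeq2 called Egr1. Of 4 glucocorticoid response genes tested in low-depth cells, 3 were lower and 1 higher, with a median of -0.81. None passed with either tool, and 2 had an unadjusted p below 0.05 by edgeR. Over the whole cluster Egr1 lost its call in 6 of 15 settings (log2 -1.55 to -0.96 over all 15). Of the 10 MHC-I genes none passed with either tool, 9 being higher with a median of 0.48 and 4 at an unadjusted p below 0.05.

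Whether the effect of stress in cluster 19 differed from that in other cells was tested in a model with each mouse as a block. Against cluster 20, 0 of 9230 genes passed by edgeR (0%), although 526 genes had an unadjusted p below 0.05, and DESeq2 called 0 with 292 below it. In cluster 20 itself 20 of 6387 genes passed (0.313%). Against tumor cells, in which 4041 of 18856 genes passed (21.4%), the effect in cluster 19 differed for 48 of 17823 genes (0.269%), 24 in each direction. DESeq2 called 3, and leaving out 1 mouse gave 12 (stress mouse 3), 19 (control mouse 1 or control mouse 3), 31 (stress mouse 2), 98 (stress mouse 1) or 117 (control mouse 2). Irf8, a transcription factor of DCs and monocytes, was at 19.8, 65.1 and 56.6 CPM in cluster 19 of control mice and 130, 106 and 105 CPM in that of stressed animals, against 10.0, 12.6 and 11.9 and 7.30, 11.7 and 11.0 CPM in tumor cells. The difference between the effects was 1.43 ± 0.21 on the log2 scale, with an adjusted p of 1.19e-07 by edgeR. Ccr7 was at 4.95, 12.6 and 34.5 against 62.5, 57.6 and 62.0 CPM in cluster 19 and at most 2.32 CPM in tumor cells of any mouse, with a difference of 1.78 ± 0.38 and an adjusted p of 0.00451. DESeq2 and the low-depth cells alone called neither Irf8 nor Ccr7, and Ccr7 also lost its call in the high-depth cells alone and without control mouse 2 (difference 0.73), stress mouse 2 or stress mouse 3. Cluster 19 held leukocyte RNA that tumor cells lacked, as given above, and its part in these differences was not tested.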

How the data were processed

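Tumor tissue of 6 mice was sequenced on the 10x Genomics platform, 1 library per mouse, and the authors deposited raw UMI counts (34099 genes, 61374 barcodes) and a table with the cluster and cell type of each annotated cell. The labels name mm10 and the matrix headers Cell Ranger 9.0.0 (control) and 7.1.0 (stress), and the annotation used for counting is not given in the sources used here. The clustering and names are those of the authors, whose stated filter kept cells with at least 200 genes and at most 20% mitochondrial UMIs, after doublets had been removed with Scrublet. Gene positions are from GENCODE M21 (GRCm38).

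Doublets were called anew per library with Scrublet (scanpy 1.11.5, Python 3.11.15) and kept. Lists are summed UMIs or medians over cells. CPM are counts per 1000000 UMIs of the summed cells of a mouse, and ratios between groups of cells were taken after adding 1 CPM to both. Tests used edgeR 4.0.16 in R 4.3.3 (filterByExpr, TMM, quasi-likelihood), with DESeq2 1.42.0 as an alternative, or exact permutation tests over mice. In simulated data with 200 changed genes, edgeR was tested for low-depth cells (2214 genes), and recovered 83 of 88 genes changed 4-fold and 26 of 86 changed 2-fold with 2 false calls, and for high-depth cells (9556 genes), and recovered 97 of 97 and 37 of 94 with 5 false calls. The simulation gave every gene the same dispersion of 0.05. Genes that vary more between mice were not simulated, so these numbers are not the recovery in the real data.

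The members and lists were chosen with earlier results of these data known. Genes named are members of those lists, the 10 largest changes past the threshold without overlap of the groups in cluster 19, the 10 largest differences of effect, and the 10 largest ratios to other cells with at least 50 CPM. A planned tumor list of genes 20-fold above other classes held no gene, so the 5 fixed tumor genes were used. With the same minimum of 100 CPM, no gene was 5-fold above the other classes. Of the 9 genes at least 3-fold above them, Krt18 alone was among the 5 fixed genes. Counting intervals and limits for counts of 0 (3 counts) cover counting error only.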

Additional observations from a re-analysis of the deposited data

Results flagged for a closer look

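The effect of stress differed between cluster 19 and tumor cells for 48 genes by edgeR's interaction test, for 12 to 117 with 1 mouse left out, and for 3 by DESeq2. The 10 largest are given as the log2 effect in cluster 19 minus that in tumor cells.

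Irf8 (1.43), Dapk1 (1.35) and Ccr7 (1.78) had the more positive effect in cluster 19. Dapk1, a kinase linked to cell death, stood at 101, 69.8 and 82.5 CPM in cluster 19 of control mice and 49.7, 50.7 and 32.1 CPM in that of stress mice. In tumor cells it stood at 79.5, 43.8 and 65.8 against 18.3, 15.4 and 8.73 CPM, so it was lower in the stress mice of both. Dapk1 kept its call in all 13 settings run, Irf8 lost it in 2 of 13 and Ccr7 in 6 of 13.

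Pecam1 (-1.59), Slpi (-1.56), Atp8a1 (-1.56), S100a9 (-1.34) and Aatk (-3.02) had the more negative effect in cluster 19. They lost their calls in 7, 8, 6, 7 and 7 of 13 settings in that order, all of them without cells called doublets and in low-depth cells alone, with differences over the 13 settings of -2.22 to -0.14 for Pecam1, -2.14 to -0.91 for Slpi, -1.66 to -1.20 for Atp8a1, -1.81 to -0.46 for S100a9 and -13.35 to -1.56 for Aatk. Their levels in cluster 19 overlapped between the groups of mice. Pecam1, an adhesion protein of endothelium and leukocytes, stood at 11.6 to 42.2 CPM in cluster 19 of control mice and at up to 24.6 CPM in that of stress mice, and in tumor cells at 2.46 to 3.48 CPM in control and 7.60 to 10.4 CPM in stress mice. Atp8a1, a lipid flippase, stood at 22.3, 33.5 and 21.1 against 24.0, 18.6 and 21.6 CPM in cluster 19, and tumor cells at 3.47, 3.50 and 3.12 against 7.39, 7.80 and 9.97 CPM. Aatk had 27.2 CPM in control mouse 1 and at most 3.72 CPM in the other mice.

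Cxadr (-11.72) and Asb16 (-11.45) had fitted values that depend on the prior count and are no bounds. Cxadr had 1, 1 and 6 UMIs in cluster 19 of control mice 1 to 3 and 0 in each stress mouse. It was at least 5.36-fold lower under stress when the limit of 3 counts is taken over the group. This bound was 11.7-fold without control mouse 2 and 2.24-fold without stress mouse 2. Without control mouse 3 the 2 UMIs left lay under the limit of 3 counts, so no fold is given for that setting. Asb16 had 0, 1 and 5 UMIs against 0 in each stress mouse. Without control mouse 3 its 1 UMI left lay under the limit of 3 counts, so no fold is given for it. Each lost its call in 10 of 13 settings.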

How the results depend on the processing

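Low-depth cells held few UMIs, so that 2214 genes could be tested there against 9556 in high-depth cells, and tests over 3 against 3 mice cannot go below an exact p of 0.10. The planned tumor list at 50-fold held no gene, and high-depth cells without called doublets left mice with fewer than 10 cells, so neither was run. The causes of the changes below were not tested, unless fewer genes or mice show them.

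The lower share of cluster 19 among DCs (-24.7 points) turned to 0.513 of all annotated cells, 0.382 of cells other than tumor cells, and 0.163 and 0.349 for low-depth and high-depth cells over annotated cells (both added after seeing the data). Leaving out a mouse gave -29.7 to -20.7. The high-depth share gave -0.208 without called doublets, and 1.26 to 17.9 over mice left out. The tumor list (0.0438) gave -0.00595 as summed UMIs, -0.0148 in high-depth cells and, added after seeing the data, -0.00286 with Fn1 and 0.0963 with the 9 genes at least 3-fold over the other classes. It gave 0 after thinning, without doublets and in low-depth cells, and 0.00507 to 0.0785 over mice left out. The MHC-II list gave 0.0704 to 0.161. The share with both lists gave -0.725 without doublets and 1.60 to 8.04 over mice left out, and the doublet share 1.08 to 19.9. The cell cycle list (0.00987) gave -0.0331 summed, -0.0333 thinned, 0 without doublets, and -0.00825 to 0.0189 over mice left out, the lowest without stress mouse 2.

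For the whole cluster, 42 called genes became 76 with DESeq2, 232 with no filter on low counts, 10 without doublets, 11 in low-depth cells and 5 below 2000 UMIs. Leaving out a mouse gave 0 to 80. With control mouse 1 left out no gene was called, with control mouse 3 left out there were 6, with stress mouse 3 there were 4, with stress mouse 1 there were 27 and with control mouse 2 there were 80. Low-depth cells gave 33 with no filter and 4 to 29 over mice left out. High-depth cells gave 255 with no filter and 15 to 113. The difference from cluster 20 gave 47 with no filter and 0 to 2, the 2 with stress mouse 1 left out. The difference from tumor cells gave 26 with RLE factors, 3 with DESeq2, 12 without doublets, 3 with low-depth cells and 12 to 117.

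Over the whole cluster, deviations of mice with the same replicate number correlated at r = 0.144, 0.271 and 0.0586. Those of mice with different numbers ran from -0.267 to 0.107. Same-number values were 0.240, 0.227 and 0.00511 in low-depth cells and 0.146, 0.147 and 0.0785 in high-depth cells. The sources used here state no pairing, and the main tests did not take the numbers as pairs. The counts of called genes depend on this choice. With the replicate number as a block, 147 genes passed in the cluster, 33 in low-depth and 159 in high-depth cells, 102 against cluster 20 and 68 against tumor cells. The paired exact p cannot go below 0.25.

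Of 452 settings over 37 values of named genes, 319 kept their direction and side of the threshold, 133 lost the call and 0 turned direction. These genes were named largely because they had passed, some also for groups without overlap. The 0 was thus largely set by that choice. Gphn, Lars2 and Cmss1 kept their calls in both depth groups in every setting run there. Ccr7 in low-depth cells lost its call in 4 of 11 settings (log2 2.42 to 3.39 over all 11).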
